A study of Mus musculus with 9 samples.

Results

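The insulin-like growth factor (IGF) axis was examined in HC11 mouse mammary epithelial cells through 10 genes, the ligands Igf1 and Igf2, the receptors Igf1r and Igf2r, and the binding proteins Igfbp2 to Igfbp7. They were chosen with earlier results of these data known and were found by gene symbol in the array annotation. Each of the 10 was covered by exactly 1 transcript cluster of 25 to 48 probes that carries no other symbol. All 10 were among the 17962 genes tested.

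IGF1 and IGF2 are secreted growth factors that act through the IGF1 receptor, a tyrosine kinase that signals to PI3K and Akt and to MAP kinases, while the IGF2 receptor removes IGF2 to lysosomes. The IGF binding proteins hold the ligands outside the cell, and proteases that cut them release the ligands again. In the mammary gland, IGF1 drives duct growth and keeps epithelial cells alive, and IGFBP5 is known from rodent studies to rise during involution after weaning.

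The study compared cells carrying a FoxF1 construct, cells carrying an NFI-C2 construct and control cells, with 3 arrays in each group and 1 RNA preparation per array. FoxF1 belongs to the forkhead family of transcription factors and NFI-C2 to the nuclear factor I family, and the methods name the latter construct as a stable form, NFI-C2S. The methods describe the control cells as carrying a vector, whereas their labels and the paper's results call them wild type, the name used here. If they carried none, differences shared by both constructs cannot be told apart from effects of transfection, which were not tested. All 9 cultures were HC11 cells, a line cloned from COMMA-1D cells of BALB/c mice, kept in the same medium with serum, insulin and EGF, so that a ligand able to act on the insulin receptor was present in every group. The methods describe the transfected cells as pools. The promoter that drives the constructs, and whether the 3 preparations of a group came from separate transfections, are not given in the sources used here, and p-values therefore measure the spread between these preparations. Neither factor's own gene was called higher in the cells named for it. The centred log2 value of Foxf1 was 0.32, 0.12 and 0.09 on the FoxF1 arrays, −1.42, −0.91 and −1.46 on the NFI-C2 arrays and 0.01, 0.00 and −0.07 on the wild type arrays. It did not pass the test in FoxF1 cells (difference 0.20, adjusted p = 0.35 from limma) and was lower in NFI-C2 cells (difference −1.24, adjusted p = 0.000758). Nfic did not pass in NFI-C2 cells (difference −0.04, adjusted p = 0.757, limma). Whether the probes cover the transfected sequences is not given, so the arrays do not check the constructs. The paper itself measured FoxF1 message by real-time PCR in parental HC11 cells and in both transfected lines. It reports that high FoxF1 went together with high LOX.

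The deposited values are log2 expression centred for each cluster on its median over the 9 arrays, so they show how a gene differs between groups and not how strongly it is expressed, and the levels of different genes cannot be ranked. Over genes, the standard deviation of an array was 0.633 to 0.645 with FoxF1, 0.227 to 0.244 with NFI-C2 and 0.199 to 0.207 in wild type cells. The epithelial label was checked on 5 luminal markers, whose summed centred log2 value was −18.5 to −16.5 in FoxF1 cells, −0.02 to 0.21 in NFI-C2 cells and 4.63 to 4.70 in wild type cells. In FoxF1 cells 4 of the 5 were lower (Epcam, Cdh1, Krt8 and Krt18, differences of −6.58 to −4.38 from wild type on the log2 scale), and 1, Krt19, did not differ (0.00). In NFI-C2 cells Krt18 (−3.21, adjusted p = 5.74e-08) and Krt8 (−1.13, adjusted p = 0.0203, limma) were lower. Epcam (−0.40), Cdh1 (0.14) and Krt19 (0.05) did not pass there. For Epcam and Cdh1 the NFI-C2 and wild type arrays nevertheless did not overlap, beside 33.6% of all genes. The fit uses the same spread for all groups. The SD of Epcam was 0.42 in FoxF1 cells, 0.04 in NFI-C2 cells and 0.07 in wild type cells, so a missing call does not show that it was unchanged. The sum of 8 fibroblast markers was 6.42 to 10.2 in FoxF1 cells, −1.98 to −1.21 in NFI-C2 cells and −0.86 to −0.43 in wild type cells. Of the 8, 5 were higher with FoxF1, led by Pdgfrb (3.69) and Col3a1 (2.32), and Dcn (0.49), Thy1 (0.15) and Lum (0.00) did not pass. The sum of 5 basal or myoepithelial markers was −15.5 to −12.9 in FoxF1 cells, 1.34 to 1.47 in NFI-C2 cells and −0.16 to −0.12 in wild type cells. With FoxF1, Krt5 (−7.35), Krt14 (−5.59) and Trp63 (−3.42) were lower, Acta2 was higher (1.96) and Myh11 did not pass (0.00). The share of these marker shifts in the results on the IGF axis was not tested, and in such bulk RNA fewer cells of a type and less RNA per cell cannot be told apart.

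In FoxF1 cells the IGF binding proteins split into 2 sets. Igfbp5, Igfbp3 and Igfbp2 were lower than in wild type cells, by 101-fold, 21.5-fold and 10.8-fold, while Igfbp4, Igfbp6 and Igfbp7 were higher, by 2.97-fold, 2.97-fold and 1.97-fold. In NFI-C2 cells Igfbp5 and Igfbp2 were also lower than in wild type cells, by 6.42-fold and 1.93-fold, and no other of the 10 genes passed the test. The receptors and Igf1 moved by less than 1.5-fold in both cell types. With FoxF1, 9 of the 10 genes were called at an adjusted p below 0.05 (4 higher, 5 lower), where 40.7% of all genes were called (21.2% higher and 19.5% lower, limma), and the arrays did not overlap for the same 9, beside 46.5% of all genes. The members' median absolute difference was 1.27 on the log2 scale, against 0.12 over all genes tested. At 1.5-fold or more, 6 of the 10 differed, beside 16.6% of all genes. With NFI-C2, 2 of the 10 were called, both lower, beside 22.0% of all genes (9.19% higher and 12.8% lower), a share close to that background, and the same 2 differed by 1.5-fold or more, beside 5.26% of all genes. Their median absolute difference was 0.14, against 0.08 over all genes. The wild type arrays are shared by these 2 comparisons. Because the 10 genes were chosen with earlier results of these data known, the shares and medians over all genes are no test of the set. All genes tested also include 6500 with 4 or more arrays exactly at 0.

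**Figure D1:**
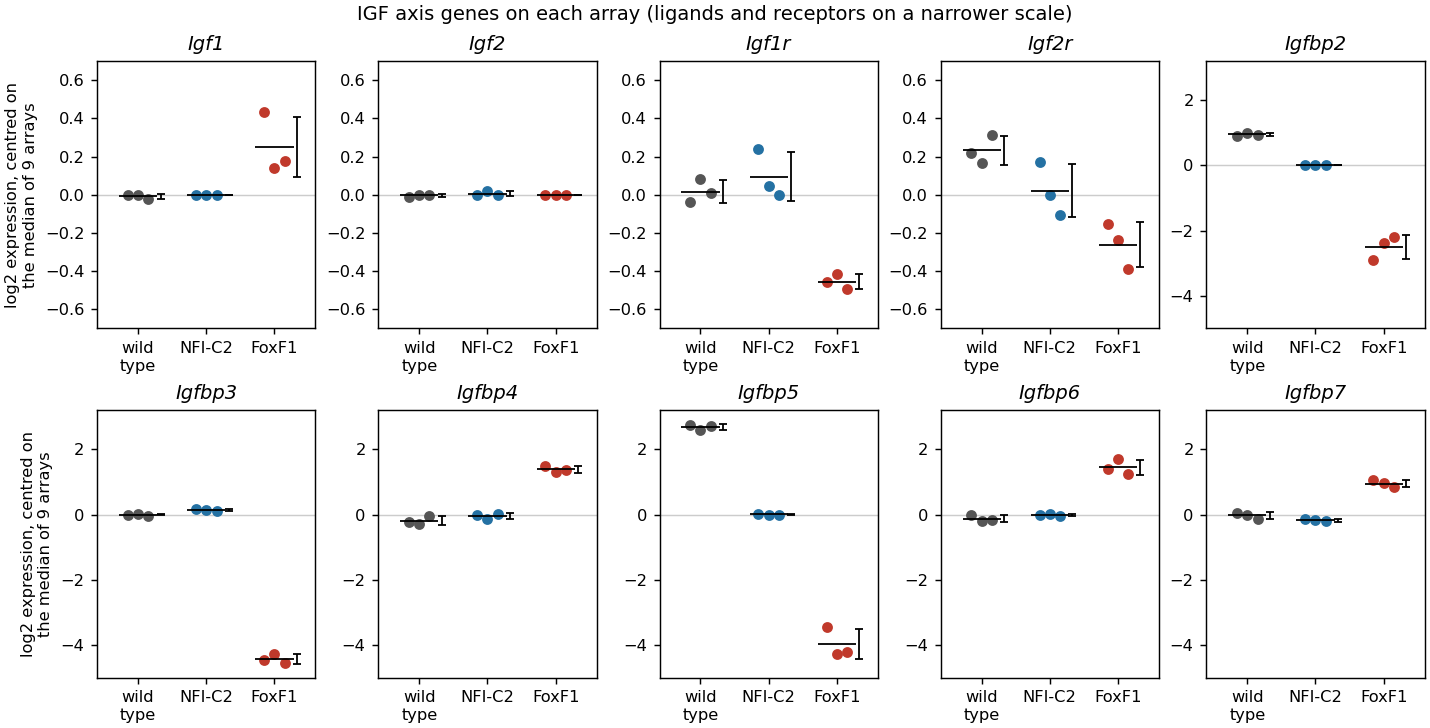
Centred log2 expression of the 10 IGF axis genes on each of the 9 arrays (points), with the group mean (horizontal line) and SD (bar, n = 3). The binding proteins have an axis from −5 to 3.2 and the ligands and receptors a narrower one. Igfbp2 and Igfbp5 step down from wild type to NFI-C2 to FoxF1, Igfbp3 is low only on the 3 FoxF1 arrays, and Igfbp4, Igfbp6 and Igfbp7 are high there.

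Of the ligands, Igf1 was slightly higher with FoxF1. Its centred log2 value was 0.43, 0.14 and 0.18 on the FoxF1 arrays, 0.00 on all 3 NFI-C2 arrays, and 0.00, 0.00 and −0.02 on the wild type arrays. Every FoxF1 array lay above every other array, and FoxF1 replicate 1 carried much of the difference. The difference from wild type was 0.26 ± 0.07 (SE, n = 3 per group), or 1.20-fold, with an adjusted p of 0.0195 (limma), and 0.17 without FoxF1 replicate 1, adjusted p = 0.000381. Igf1 stood at exactly 0 on 5 of the 9 arrays, which narrows the spread used by the test, and the call was lost when any 1 wild type array was left out (adjusted p = 0.0542 to 0.0612, limma). Against NFI-C2 cells the difference was 0.25, adjusted p = 0.0204 (limma), or 0.16 without FoxF1 replicate 1 (adjusted p = 0.000406), and the call too was lost without any 1 NFI-C2 array (adjusted p = 0.0593 to 0.0608). Igf2, the fetal growth factor, was at exactly 0 on 7 of the 9 arrays and ranged from −0.01 to 0.02 over all of them. It passed no test (difference 0.00 with FoxF1, adjusted p = 0.928; 0.01 with NFI-C2, adjusted p = 0.726, limma), and such centred values cannot tell a stable message from one too low to be measured.

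Both receptors were lower in FoxF1 cells by modest amounts. Igf1r, the signalling receptor, was −0.46, −0.41 and −0.50 on the FoxF1 arrays, 0.24, 0.04 and 0.00 on the NFI-C2 arrays and −0.04, 0.08 and 0.01 on the wild type arrays. The FoxF1 arrays lay below all the others, and the NFI-C2 and wild type arrays overlapped. The difference with FoxF1 was −0.47 ± 0.06 (SE, n = 3; 95% interval −0.62 to −0.32), adjusted p = 0.000625 (limma), and against NFI-C2 cells it was −0.55, adjusted p = 0.00023. With NFI-C2 it was 0.08 (95% interval −0.07 to 0.23, adjusted p = 0.491, limma). The call against wild type was lost once all arrays were scaled to one standard deviation (difference −0.29, adjusted p = 0.061, limma). That scaling shrinks the FoxF1 arrays, whose wider spread over genes includes the FoxF1 differences themselves. It therefore cannot show how reliable the call is.

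Igf2r, the receptor that carries IGF2 and mannose 6-phosphate-tagged enzymes to lysosomes, was −0.16, −0.24 and −0.39 on the FoxF1 arrays, 0.17, 0.00 and −0.10 on the NFI-C2 arrays and 0.22, 0.17 and 0.31 on the wild type arrays. The 3 groups formed a staircase, in which the FoxF1 arrays overlapped neither other group and the highest NFI-C2 array reached the lowest wild type array. The FoxF1 difference from wild type was −0.49 ± 0.09 (SE, n = 3; adjusted p = 0.00222, limma). The NFI-C2 difference was −0.21 (95% interval −0.41 to −0.01) and did not pass after adjustment (adjusted p = 0.139, limma). FoxF1 cells were below NFI-C2 cells (log2 difference −0.28, adjusted p = 0.0295, limma), a call that was lost without any 1 of FoxF1 replicates 2 and 3 (adjusted p = 0.0672 and 0.1), NFI-C2 replicates 1 and 2 (0.0889 and 0.0707) or wild type replicate 1 (0.0533).

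Igfbp5 moved furthest of the 10 genes in both comparisons. IGFBP5 binds IGFs and the extracellular matrix. Its centred log2 value was −3.44, −4.27 and −4.21 on the FoxF1 arrays, 0.03, −0.02 and 0.00 on the NFI-C2 arrays and 2.74, 2.59 and 2.72 on the wild type arrays. None of the 3 groups overlapped another. The FoxF1 difference from wild type was −6.65 ± 0.20 (SE, n = 3; 95% interval −7.13 to −6.18), adjusted p = 1.59e-07 (limma), and 4 of the 17962 genes had a lower difference. The NFI-C2 difference was −2.68 ± 0.20 (95% interval −3.15 to −2.21), adjusted p = 0.000105, and 11 genes had a lower one. Its SE and interval use a spread shared by all groups. The SD was 0.46 in FoxF1 cells, 0.03 in NFI-C2 cells and 0.08 in wild type cells. FoxF1 cells lay 15.7-fold below NFI-C2 cells (log2 difference −3.97, adjusted p = 2.12e-06, limma).

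Igfbp2, a binding protein with a preference for IGF2, had the same order of groups. The values were −2.90, −2.37 and −2.19 on the FoxF1 arrays, 0.00 on all 3 NFI-C2 arrays and 0.92, 0.99 and 0.94 on the wild type arrays. FoxF1 replicate 1 was the lowest of its group, and again none of the groups overlapped. The difference from wild type was −3.44 ± 0.16 (SE, n = 3; adjusted p = 1.53e-06, limma) with FoxF1 and −0.95 ± 0.16 (adjusted p = 0.00457) with NFI-C2, and the difference of FoxF1 from NFI-C2 cells was −2.49 (adjusted p = 7.57e-06). The 3 equal NFI-C2 values give that group an SD of 0, which understates its spread. The SE uses a spread shared by all groups, and the SD was 0.37 in FoxF1 cells and 0.04 in wild type cells. The SE of the NFI-C2 difference is therefore set largely by the FoxF1 arrays. Igfbp2 and Igfbp5 are neighbours on mouse chromosome 1, where their clusters (chr1:72871066-72899048 on the plus strand and chr1:72904610-72921439 on the minus strand, NCBIM37) face each other with 5.56 kb between them.

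Igfbp3, whose protein carries most IGF in the circulation, separated FoxF1 cells from both other groups. Its values were −4.47, −4.27 and −4.55 on the FoxF1 arrays, 0.18, 0.13 and 0.11 on the NFI-C2 arrays and 0.00, 0.03 and −0.03 on the wild type arrays. The FoxF1 arrays stood more than 4 log2 units below every other array. The difference was −4.43 ± 0.07 (SE, n = 3; 95% interval −4.58 to −4.27) from wild type cells, adjusted p = 6.11e-09, and −4.57 from NFI-C2 cells, adjusted p = 5.29e-09 (limma). The NFI-C2 arrays did not overlap the wild type arrays, beside 33.6% of all genes with no overlap, but the difference of 0.14 (95% interval −0.01 to 0.29) did not pass (adjusted p = 0.199, limma). It passed without FoxF1 replicate 2 (adjusted p = 0.0211, limma). Igfbp3 lies on chromosome 11, 3.55 kb from Igfbp1, whose own differences were 0.01 with FoxF1 (adjusted p = 0.979) and 0.02 with NFI-C2 (adjusted p = 0.921, limma).

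Igfbp4, Igfbp6 and Igfbp7 made up the set that was higher in FoxF1 cells. Igfbp4, which is inhibitory toward IGF action and is the classical substrate of the protease PAPP-A, was 1.49, 1.30 and 1.36 on the FoxF1 arrays, 0.00, −0.14 and 0.00 on the NFI-C2 arrays and −0.24, −0.28 and −0.04 on the wild type arrays. The FoxF1 arrays were all above 1.2 and the other 6 all close to 0 or below it. The difference from wild type was 1.57 ± 0.08 (SE, n = 3; adjusted p = 2.31e-06, limma), and that from NFI-C2 cells was 1.43 (adjusted p = 3.27e-06).

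Igfbp6, a binding protein with a strong preference for IGF2, was 1.40, 1.71 and 1.23 on the FoxF1 arrays, −0.03, 0.02 and −0.06 on the NFI-C2 arrays and 0.00, −0.20 and −0.17 on the wild type arrays. FoxF1 again lay clear of the other groups, which overlapped. The difference from wild type was 1.57 ± 0.11 (SE, n = 3; adjusted p = 1.81e-05, limma) and from NFI-C2 cells 1.47 (adjusted p = 2.24e-05). Igfbp7, a related secreted protein that binds IGFs weakly and is found in the matrix, was 1.04, 0.95 and 0.85 on the FoxF1 arrays, −0.12, −0.18 and −0.21 on the NFI-C2 arrays and 0.06, 0.00 and −0.14 on the wild type arrays. Here too the FoxF1 arrays did not overlap the others. The difference from wild type was 0.98 ± 0.06 (SE, n = 3; adjusted p = 9.99e-06, limma) and from NFI-C2 cells 1.12 (adjusted p = 3.96e-06). In NFI-C2 cells the 3 genes differed from wild type by 0.14, 0.10 and −0.15, with 95% intervals of −0.04 to 0.33 for Igfbp4, −0.17 to 0.37 for Igfbp6 and −0.30 to 0.00 for Igfbp7. These intervals hold for the deposited scale. After quantile normalization the difference was 0.41 for Igfbp4 (adjusted p = 0.123) and 0.28 for Igfbp6 (adjusted p = 0.172, limma), and neither passed.

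**Figure D2:**
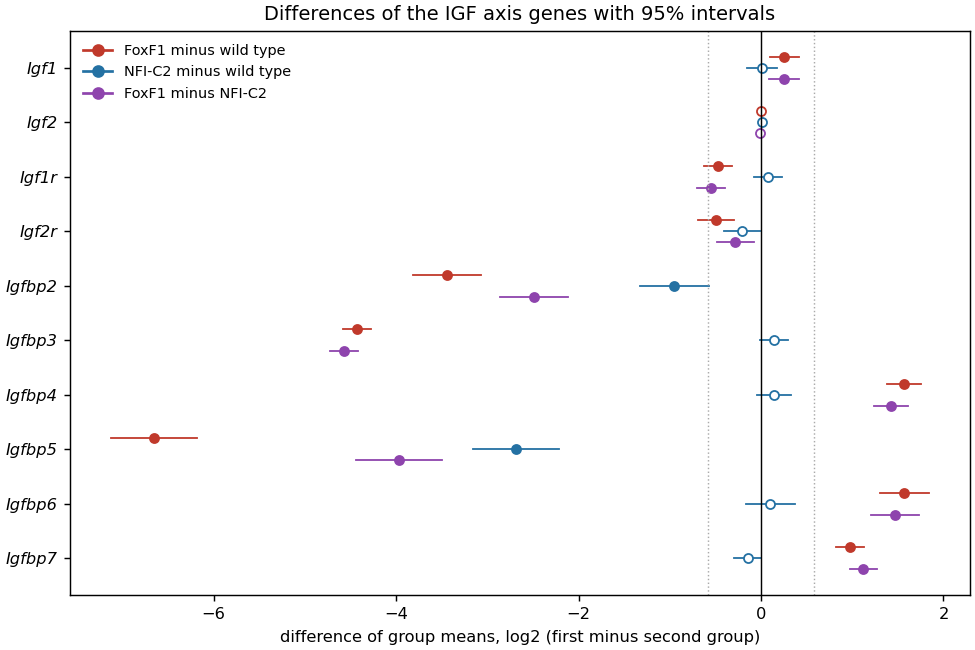
Differences of group means on the log2 scale for each IGF axis gene in the 3 comparisons, with 95% intervals of the moderated fit; filled points passed an adjusted p of 0.05, open points did not, and dotted lines mark 1.5-fold. Apart from Igfbp2 and Igfbp5, every NFI-C2 minus wild type difference is open and lies between −0.21 and 0.14.

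Set directly against each other, FoxF1 and NFI-C2 cells differed in 9 of the 10 genes (4 higher and 5 lower in FoxF1 cells), beside 43.8% of all genes called (24.0% higher and 19.8% lower, limma). For the same 9 the arrays did not overlap, beside 48.4% of all genes. The 9 were those called between FoxF1 and wild type cells, a comparison that shares the FoxF1 arrays, and 6 of them, the binding proteins, differed by 1.5-fold or more, beside 19.4% of all genes. The size of several differences changed with the scale given to the arrays. After quantile normalization the difference from wild type became −2.07 for Igfbp3, −4.82 for Igfbp5 and 0.65 for Igfbp7, with the direction and call kept, and the difference of FoxF1 from NFI-C2 cells became −2.26, −1.84 and −1.17 for Igfbp3, Igfbp5 and Igfbp2. After scaling of all arrays to one standard deviation the NFI-C2 difference from wild type became −4.77 for Igfbp5 and −1.69 for Igfbp2, and the FoxF1 difference −2.49 for Igfbp3, 1.03 for Igfbp6 and 0.58 for Igfbp7. Against NFI-C2 cells the FoxF1 difference was then 0.85 for Igfbp4 and 0.85 for Igfbp6, and these genes kept their calls.

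**Figure D3:**
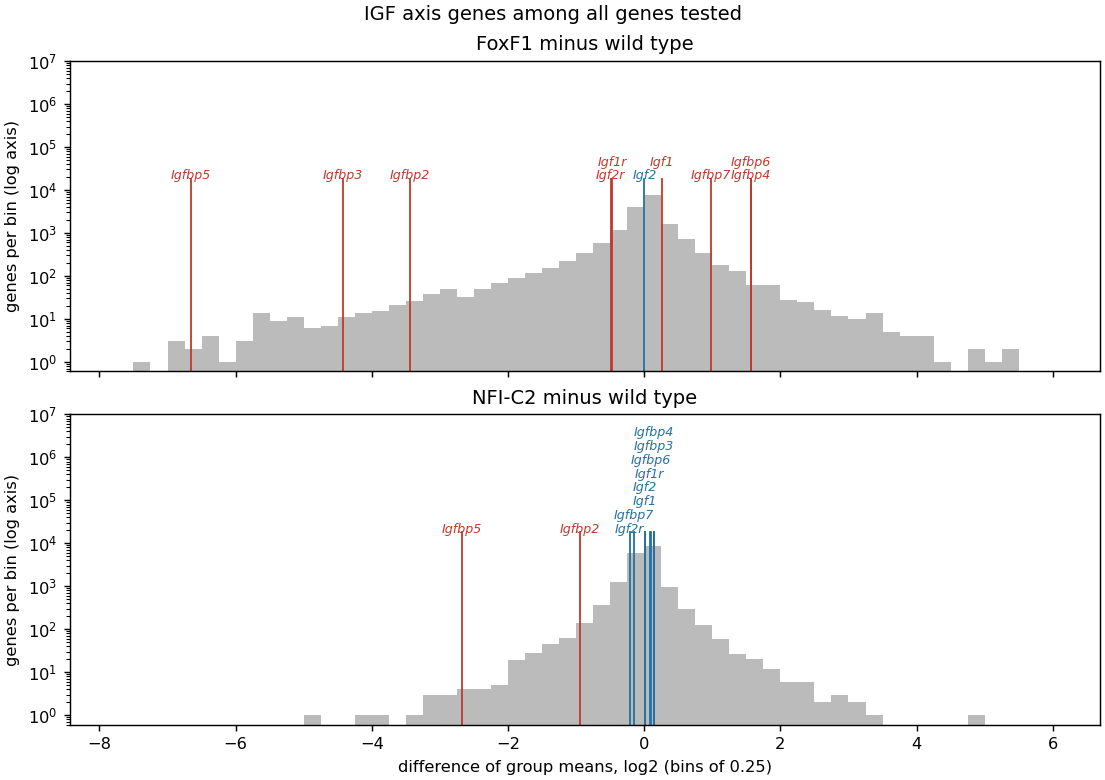
Distribution of the difference from wild type over the 17962 genes tested (grey, bins of 0.25 log2 units, log axis of gene counts), with the 10 IGF axis genes as vertical lines, red if called and blue if not. In FoxF1 cells Igfbp5, Igfbp3 and Igfbp2 lie in the lower tail at −6.65, −4.43 and −3.44, and in NFI-C2 cells only Igfbp5 and Igfbp2 lie outside the centre.

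The genes nearest to the 3 strongest members in their values over the 9 arrays were sought among all named genes. Nearness was the root mean square difference from the member (n = 9 arrays in 3 groups). The groups all differed for Igfbp5 and Igfbp2, while for Igfbp3 the difference between NFI-C2 and wild type cells did not pass. For Igfbp5 they were Arg1 (0.48), the arginase that makes ornithine and urea, Slc5a8 (0.53), a transporter of monocarboxylates, and Cldn1 (0.66), a tight junction claudin. Their differences from wild type were −5.64, −5.74 and −5.28 with FoxF1 and −1.96, −1.86 and −2.32 with NFI-C2. For Igfbp3 they were Rab25 (0.15), a small GTPase of epithelial recycling endosomes, the imprinted gene Peg3 (0.16) and Cdcp1 (0.18), a transmembrane protein. For Igfbp2 they were Slc1a1 (0.17), a glutamate transporter, Alcam (0.18), an adhesion molecule, and Myo5b (0.19), a myosin motor of vesicle transport. Their low values on FoxF1 arrays follow from this choice, since nearness was taken over the same arrays. With FoxF1, the differences of the 9 genes from wild type were −5.74 to −3.03 on the log2 scale.

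Promoter sequence is shown for Igfbp5 and Igfbp2, the neighbours that were lower in both cell types, and for Igfbp7, which with Igfbp5 holds a match to the motifs searched. The 250 bases before the start were read from RefSeq (GRCm38.p6), in the direction of the gene, and capitals mark TTGGC, one arm of the nuclear factor I motif.
Igfbp5 (chr1:72874866-72875115, minus strand): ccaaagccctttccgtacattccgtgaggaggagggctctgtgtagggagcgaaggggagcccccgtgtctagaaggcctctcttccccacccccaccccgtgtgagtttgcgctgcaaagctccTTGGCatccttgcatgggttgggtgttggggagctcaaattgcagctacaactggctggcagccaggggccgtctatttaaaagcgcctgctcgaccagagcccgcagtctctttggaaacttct
Igfbp2 (chr1:72824230-72824479, plus strand): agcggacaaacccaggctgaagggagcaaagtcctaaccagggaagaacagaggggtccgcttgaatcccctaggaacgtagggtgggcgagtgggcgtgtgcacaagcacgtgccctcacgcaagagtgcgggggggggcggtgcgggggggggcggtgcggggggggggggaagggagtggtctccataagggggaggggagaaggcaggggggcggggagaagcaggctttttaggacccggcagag
Igfbp7 (chr5:77408046-77408295, minus strand): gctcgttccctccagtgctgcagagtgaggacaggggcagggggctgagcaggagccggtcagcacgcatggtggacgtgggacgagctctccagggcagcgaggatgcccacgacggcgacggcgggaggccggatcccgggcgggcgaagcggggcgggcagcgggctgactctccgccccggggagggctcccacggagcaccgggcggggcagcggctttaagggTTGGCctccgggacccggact

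The forkhead letters GTAAACA, on either strand, were in none of the 14 RefSeq promoters of the 10 genes and in 3.17% of all 32851 promoters of that length. The full nuclear factor I palindrome, in which TTGGC is followed after 5 bases by GCCAA, was likewise in none, and in 0.0365% of all promoters. Its single arm TTGGC, which the palindrome contains, was in 2 of the 14 promoters, 125 bases before the start of Igfbp5 and 21 bases before that of Igfbp7, and in 41.5% of all promoters. By gene, 2 of the 10 held it, beside 45.3% of all genes with a promoter. These letters describe the 250-base windows only.

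The other genes of the pathway were taken as 8 lists with 88 genes, of which 84 were tested. These lists too were chosen with earlier results of these data known. Against wild type cells, 22 of the 84 were higher, 34 lower and 28 not called with FoxF1, and 14 were higher, 16 lower and 54 not called with NFI-C2. Over all genes tested, 21.2% were higher and 19.5% lower with FoxF1 and 9.19% higher and 12.8% lower with NFI-C2, and the counts of each list below stand beside these shares. The median difference over the 84 was −0.01 with FoxF1, against 0.01 over all genes.

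Among the other ligands, receptors and binding proteins of the family, 7 of 9 were tested; 3 were lower and 4 not called with FoxF1 (median −0.01), and 1 was higher and 1 lower with NFI-C2 (median 0.02). Esm1, or endocan, a secreted proteoglycan, moved in the same order as Igfbp5 and Igfbp2. Its values were −0.92, −1.04 and −1.04 on FoxF1 arrays, 0.06, 0.00 and −0.06 on NFI-C2 arrays and 1.68, 1.73 and 1.87 on wild type arrays, with no overlap between groups. The differences were −2.76 (adjusted p = 3.04e-08) with FoxF1 and −1.76 (adjusted p = 2.69e-06) with NFI-C2 (limma). Kazald1, a secreted protein of the IGFBP-related group, went in opposite directions, −0.66 with FoxF1 (adjusted p = 0.00148) and 0.53 with NFI-C2 (adjusted p = 0.0101, limma), and the difference between the 2 cell types was −1.19 (adjusted p = 4.96e-05). The insulin receptor Insr was lower with FoxF1 (−0.37, adjusted p = 0.00146, limma) and was −0.02 with NFI-C2 (adjusted p = 0.88).

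Of the 13 proteases that cut IGF binding proteins, and their inhibitors, 5 were higher and 3 lower with FoxF1 (median 0.04) and 3 higher and 3 lower with NFI-C2 (median 0.03). Pappa, which encodes the protease PAPP-A, was −0.57, −0.50 and −0.33 on FoxF1 arrays, 0.00, 0.00 and 0.01 on NFI-C2 arrays and 1.41, 1.44 and 1.26 on wild type arrays. It was thus lower with FoxF1 (−1.84, adjusted p = 4.56e-07) and with NFI-C2 (−1.37, adjusted p = 1.37e-05, limma), with no overlap between groups. Stc1, stanniocalcin 1, which inhibits PAPP-A, was higher with FoxF1 (1.56, adjusted p = 0.000396, limma). Htra1, a secreted serine protease, was higher in both cell types, by 1.71 with FoxF1 (adjusted p = 6.37e-07) and 0.55 with NFI-C2 (adjusted p = 0.00103). Plau, the urokinase plasminogen activator, rose by 1.21 and 0.63 (adjusted p = 4.25e-06 and 0.000532). Adam9, a membrane metalloprotease, was 1.24 higher with FoxF1 (adjusted p = 2.94e-07), and Mmp7, matrilysin, was 0.56 higher with NFI-C2 (adjusted p = 0.00123, limma).

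Downstream of the receptors, Irs1, the insulin receptor substrate that docks PI3K, was lower in both cell types and lowest with NFI-C2. It was exactly 0.00 on all 3 FoxF1 arrays, −1.12, −1.13 and −1.23 on NFI-C2 arrays and 0.96, 1.02 and 0.89 on wild type arrays. The differences were −0.95 with FoxF1 (adjusted p = 1.09e-06) and −2.11 with NFI-C2 (adjusted p = 2.35e-07), and NFI-C2 cells lay below FoxF1 cells (FoxF1 minus NFI-C2 1.16, adjusted p = 3.36e-07, limma), the reverse of the order seen for Igfbp5. Of the 11 substrates and adaptors tested, 3 were higher and 4 lower with FoxF1 (median −0.03) and 1 higher and 3 lower with NFI-C2 (median 0.01). The other adaptors that were lower with FoxF1 were Gab1 (−1.18), a docking protein, Grb2 (−0.90), which links receptors to Ras, and Grb14 (−0.89), an inhibitor of the insulin receptor kinase.

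In the PI3K, Akt and mTOR pathway 8 of 25 genes were higher and 10 lower with FoxF1 (median −0.03), and 4 higher and 4 lower with NFI-C2 (median −0.03). The largest differences with FoxF1 were those of Pik3r3 (−1.79, adjusted p = 6.99e-06), a regulatory subunit of PI3K, Eif4ebp1 (1.31, adjusted p = 2.4e-07), the translation repressor that mTOR inactivates, Tsc1 (−1.12, adjusted p = 4.17e-06), a brake on mTOR, and Rps6kb1 (−0.85, adjusted p = 2.67e-06, limma), the S6 kinase. With NFI-C2 the differences were smaller, led by Pik3r2 (0.37), Akt1 (−0.30) and Pik3cb (−0.26).

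The IGF2 mRNA-binding proteins, which bind Igf2 and many other messages, included 1 gene that was higher in both cell types. Igf2bp2 was 0.54, 0.65 and 0.52 on FoxF1 arrays, 0.00, 0.04 and 0.00 on NFI-C2 arrays and −1.42, −1.65 and −1.41 on wild type arrays. No groups overlapped, and the differences were 2.06 with FoxF1 (adjusted p = 2.41e-07) and 1.51 with NFI-C2 (adjusted p = 9.43e-06, limma). Igf2bp1 was higher with FoxF1 (0.81, adjusted p = 0.00055, limma), and Igf2bp3 was 0.02 with FoxF1 and 0.00 with NFI-C2 and passed neither test. Of the 8 endosome and lysosome sorting partners of Igf2r tested, 4 were higher and 2 lower with FoxF1 (median 0.28) and 1 higher and 2 lower with NFI-C2 (median −0.03). Plaur, the urokinase receptor, went in opposite directions, 1.15 with FoxF1 (adjusted p = 0.000126) and −0.63 with NFI-C2 (adjusted p = 0.00778, limma). Gga3 was lower with FoxF1 (−0.80, adjusted p = 3.52e-07) and did not pass with NFI-C2 (−0.04, adjusted p = 0.472, limma). Gga2 was higher with NFI-C2 (0.37, adjusted p = 0.0238) and did not pass with FoxF1 (0.23, adjusted p = 0.0857, limma). Gnptab, which makes the mannose 6-phosphate tag, was lower in both (−0.76 and −0.28, adjusted p = 1.05e-05 and 0.00666).

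**Figure D4:**
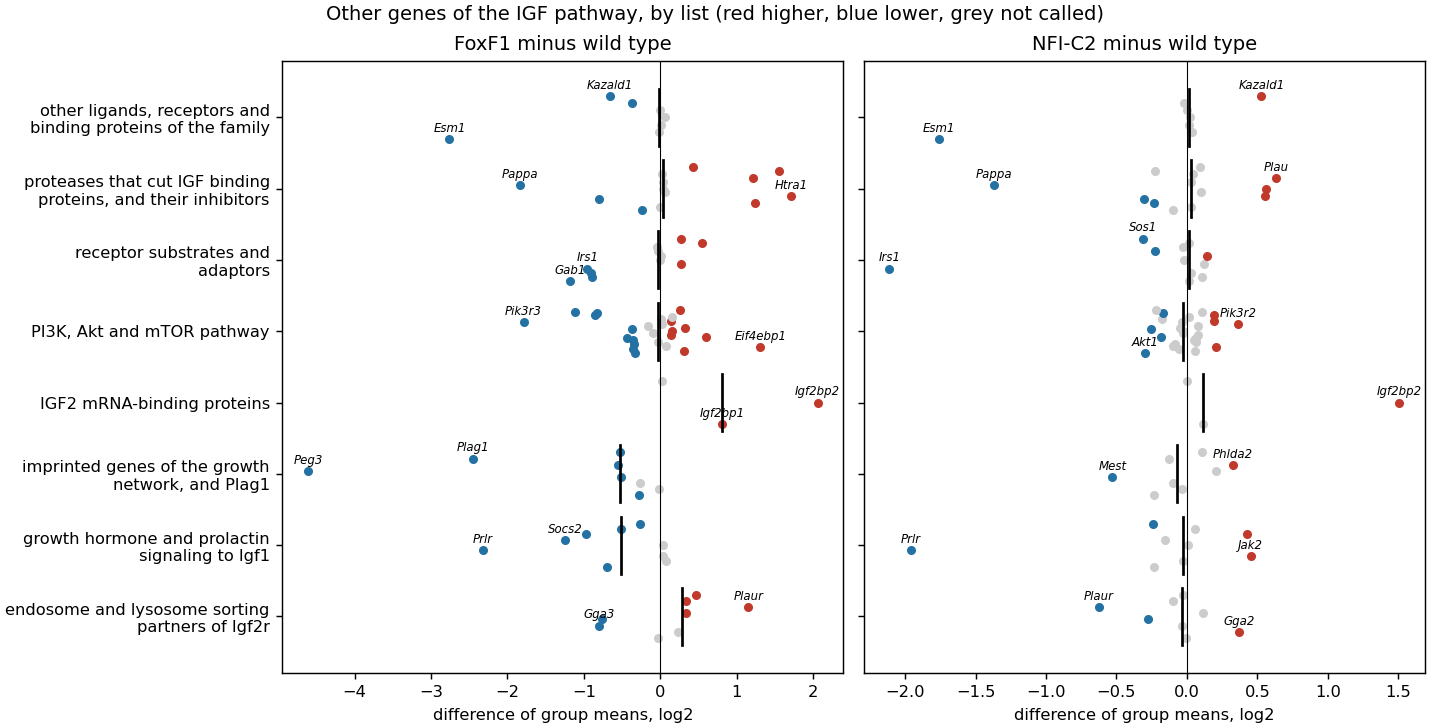
Differences from wild type on the log2 scale for the 84 other genes of the pathway, in 8 lists (left, FoxF1; right, NFI-C2, on a narrower axis); each point is a gene, red if higher, blue if lower and grey if not called, black lines are list medians, and height within a list has no meaning. Pappa, Esm1, Irs1 and Prlr are lower and Igf2bp2 is higher in both cell types.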

How the data were processed

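Each of 9 RNA preparations of HC11 cells (3 FoxF1, 3 NFI-C2 and 3 wild type) was run on 1 Affymetrix Mouse Gene ST 1.0 array. The authors deposited log2 expression for each transcript cluster, made with RMA according to the submitters' processing notes; its version and settings and the scan dates are not given in the sources used here. On the values, all 28815 clusters were centred to a median of 0 across arrays, and in 5171 of the genes tested the 3 arrays of at least 1 group are equal within 1e-06. The sources describe neither step. Such ties lower the spread within a group and with it the standard errors and p-values. A further table differs from the first by 5.0e-08 at most, and a sheet of the authors' p-values was not used.

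Clusters with 1 gene symbol were kept (20727), per gene the one with most probes was used, symbols were updated through gene IDs for 3581 genes tested, and 1261 genes with 9 equal arrays were left out, which leaves 17962. Coordinates of clusters are those of the array annotation (NCBIM37), and promoters come from RefSeq (GRCm38.p6), in which all 10 members were found. The 3 group means were fitted in 1 model with limma 3.58.1 in R 4.3.3 (6 residual and 1.33 prior degrees of freedom, no trend), two-sided, and p-values were adjusted after Benjamini-Hochberg over all genes tested, with a threshold of 0.05. A gene called higher or lower passed that threshold, and the study's 1.5-fold criterion was applied separately. All groups share the same estimate of the spread. The SE of a difference between NFI-C2 and wild type cells therefore also carries the spread of the FoxF1 arrays. The fit was tested on simulated data with normal noise of the same spread in every group. Such data hold neither the ties nor the unlike spreads of the real arrays, so that test does not cover them. Beside the 10 members, up to 4 called genes of each list were named by the size of the difference, and for the 3 members that differed most from wild type, the 3 genes of nearest pattern. The members and lists were chosen with earlier results of these data known. No p-value was computed over a list. Other moderation, scaling, filters, choices of cluster, call rules, a replicate block and the removal of each array were tried as alternatives. The number of arrays limits the precision. Python 3.11.15, pandas 2.3.3, NumPy 2.4.6 and matplotlib 3.10.9 were used for tables and figures.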

Additional observations from a re-analysis of the deposited data

How the results depend on the processing

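Over 23 alternative settings no difference of an IGF axis gene changed direction, where a fall to exactly 0, as for Igf2, was not counted. The call rules, the centring of arrays and the choices of cluster could not change a direction. The calls of all 6 binding proteins with FoxF1, against wild type and against NFI-C2 cells, and those of Igfbp2 and Igfbp5 with NFI-C2 were kept in every setting. The number of members called was 6 to 9 for FoxF1 against wild type, 2 to 4 for NFI-C2 against wild type and 6 to 9 for FoxF1 against NFI-C2. Leaving out 1 array at a time gave 8 to 9, 2 to 3 and 7 to 9. The count for NFI-C2 against wild type was 4 after quantile normalization and 4 after scaling of the arrays to one standard deviation, where Igf2r (−0.34 and −0.38, adjusted p = 0.0437 and 0.0395, limma) and Igfbp3 (0.19 and 0.21, adjusted p = 0.0135 and 0.0206) also passed. Both settings give all arrays a common spread, which widens the NFI-C2 and wild type arrays. How far this accounts for the added calls was not tested. With only the 6 arrays compared, Igf1 did not pass in either FoxF1 comparison (adjusted p = 0.0779 and 0.0739), Igf2r did not pass between FoxF1 and NFI-C2 (0.078) and Igfbp3 passed for NFI-C2 (0.021). Igf1 also did not pass after quantile normalization (0.0519 and 0.0572), nor Igf2r between FoxF1 and NFI-C2 after quantile normalization (0.209), after scaling (0.302) or without moderation (0.0552). Under the 1.5-fold criterion 6, 2 and 6 members differed, and 2983, 945 and 3480 of all genes in place of 7304, 3944 and 7863. Robust moderation, array weights, centring of arrays, and the other choices of cluster and filter changed no member's call. Centring could change none, because the median of every array over genes was already 0. The choices of cluster could not change a member's difference, because each member has exactly 1 cluster. No scan dates were found, so the batch alternative was not run.

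Nothing in the labels says that a replicate number marks a shared culture. Deviations of same-numbered arrays correlated at r = −0.004 to 0.18 over 9 pairs, 2 of them over 0.1, and 4 of 9 arrays correlated best with their own number. With the replicate number as a block, the members called were 9, 3 and 9, and 7390, 4031 and 7929 of all genes, and Igfbp7 passed for NFI-C2 against wild type (adjusted p = 0.0207, limma). The block changed no other member's call.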

Other observations

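Growth hormone and prolactin signalling controls Igf1 in liver and milk genes in the mammary gland. Of its 9 listed genes, 6 were lower and none higher in FoxF1 cells, beside 19.5% lower and 21.2% higher over all genes (median −0.52 on the log2 scale, against 0.01 over all genes), and some of the 6 are inhibitors of the pathway. With NFI-C2 2 were higher and 2 lower, beside 9.19% and 12.8% (median −0.03). The prolactin receptor Prlr led both comparisons. Its values were −0.28, −0.41 and −0.32 on FoxF1 arrays, −0.07, 0.00 and 0.14 on NFI-C2 arrays and 1.72, 2.03 and 2.21 on wild type arrays, with no overlap between groups. The differences from wild type were −2.32 (adjusted p = 2.72e-06) and −1.96 (adjusted p = 3.83e-05, limma). Of the feedback inhibitors of this pathway, Socs2 was lower with FoxF1 (−1.24, adjusted p = 4.6e-06), as were Socs3 (−0.97, adjusted p = 8.77e-07) and Cish (−0.70, adjusted p = 0.000852), while Socs3 was higher with NFI-C2 (0.42, adjusted p = 0.00032, limma). Cish had the same value, −0.43, on all 3 FoxF1 arrays, a tie that lowers the spread used by its test. The kinase Jak2 was higher with NFI-C2 (0.45, adjusted p = 0.00532) and 0.03 with FoxF1 (adjusted p = 0.821).

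Another list held 8 tested genes, 7 imprinted genes that influence growth, as Igf2 and Igf2r do, and Plag1, which is not known to be imprinted. With FoxF1, 6 of the 8 were lower, or 5 of 7 without Plag1, and none was higher, beside 19.5% lower and 21.2% higher over all genes (median of the 8 −0.52). With NFI-C2, 1 was higher and 1 lower, beside 9.19% and 12.8% (median −0.07). Peg3, a zinc finger protein expressed from the paternal allele, fell by 4.61 on the log2 scale with FoxF1 (adjusted p = 9.17e-09, limma), and Plag1, a zinc finger activator of Igf2, was lower too (−2.45, adjusted p = 2.43e-06). Mest was lower in both cell types (−0.52 and −0.53, adjusted p = 0.000111 and 0.000363). Phlda2 was lower with FoxF1 (−0.56, adjusted p = 0.000544) and higher with NFI-C2 (0.32, adjusted p = 0.0177, limma). H19, the noncoding neighbour of Igf2, did not pass with either construct (−0.26 with FoxF1, adjusted p = 0.0757; −0.10 with NFI-C2, adjusted p = 0.558, limma).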
